A study of Drosophila melanogaster with 3 samples.

Results

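The regions described here are the summits of Pdp1 ChIP-seq peaks that lay deep inside genes of ordinary length. They were chosen by position alone, from the deposited list of reproducible (optimal) peaks on the dm6 assembly of Drosophila melanogaster. A line of that list was a member when its summit lay farther than 1 kb from every transcription start site (TSS) of a protein-coding gene, in no exon, and in an intron of a protein-coding gene, with the longest such gene under 50 kb. Of the 13583 lines, 3057 (22.5%) were members, and they lay in introns of 1294 genes. Chromatin came from whole embryos of mixed sex, aged 0 to 24 h, of a transgenic fly line (Pdp1-GFP) in which Pdp1 carries eGFP, a green fluorescent protein, at its C-terminus, and an antibody to GFP served for the precipitation. There was 1 group of 3 biological replicates from that line and no untagged or treated group, so members were compared with neighbouring sequence and with other classes of summits. The promoter that drives the tagged gene is not given in the sources used here, and in whole embryos the cells in which a region was bound cannot be told apart.

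Pdp1 belongs to the PAR bZIP transcription factors, whose basic leucine zipper adjoins a stretch of many prolines and acidic amino acids. Such factors bind as dimers to palindromic DNA sites, and in the fly clock Pdp1 is known to raise Clk transcription, opposing the related repressor vri at shared sites. It is also known in muscle, where it takes part in the activation of Tropomyosin genes, and in growth and fat metabolism. Enhancers of Drosophila genes often lie in introns, and the intron next to the start of a gene is frequently among the longest.

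The sequence that recurred at the summits is shown first in 5 of the strongest members with the canonical PAR bZIP site, taken by falling signal with 1 chromosome arm left out. The site reads TTACGTAA or, on either strand, TTATGTAA. They are followed by 3 strong members with only a wider form of it, TTNNNNAA with the 4 central bases alternating purine, pyrimidine, purine, pyrimidine, by 1 with neither, and by 1 with the site that was found in replicate 1 alone. Each run is the plus strand of the Release 6 reference genome (dm6), 50 bp on each side of the summit, written 5′ to 3′, with the site or wider form in capitals. The positions are chr3L:14006886-14006986 in upSET, chr3R:20829122-20829222 in Adss, chrX:5918868-5918968 in CG3726, chr3R:17067946-17068046 in Dad, chrX:17659186-17659286 in beta-Spec, chrX:4684705-4684805 in Pp2C1, chr3R:24320111-24320211 in BRWD3, chr3R:14285202-14285302 in trx, chr2L:6612662-6612762 in CG11050 and chr2L:436453-436553 in ex.
upSET: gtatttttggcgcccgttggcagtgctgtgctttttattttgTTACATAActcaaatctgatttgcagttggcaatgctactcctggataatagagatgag
Adss: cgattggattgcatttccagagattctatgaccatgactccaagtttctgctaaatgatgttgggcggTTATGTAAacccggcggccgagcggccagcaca
CG3726: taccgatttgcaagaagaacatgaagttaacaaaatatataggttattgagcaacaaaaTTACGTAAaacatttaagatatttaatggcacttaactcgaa
Dad: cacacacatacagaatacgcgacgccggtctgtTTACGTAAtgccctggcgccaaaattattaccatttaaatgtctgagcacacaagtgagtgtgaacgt
beta-Spec: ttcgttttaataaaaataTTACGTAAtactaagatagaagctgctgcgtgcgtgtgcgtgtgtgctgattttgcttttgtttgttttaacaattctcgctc
Pp2C1: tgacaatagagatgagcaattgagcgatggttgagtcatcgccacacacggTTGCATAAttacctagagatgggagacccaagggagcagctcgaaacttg
BRWD3: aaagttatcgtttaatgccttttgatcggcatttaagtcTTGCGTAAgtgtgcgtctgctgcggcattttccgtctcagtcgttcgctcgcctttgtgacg
trx: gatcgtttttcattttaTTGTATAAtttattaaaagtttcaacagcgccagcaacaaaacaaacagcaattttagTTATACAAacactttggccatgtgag
CG11050: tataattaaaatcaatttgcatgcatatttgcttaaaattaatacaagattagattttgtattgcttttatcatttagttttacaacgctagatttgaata
ex: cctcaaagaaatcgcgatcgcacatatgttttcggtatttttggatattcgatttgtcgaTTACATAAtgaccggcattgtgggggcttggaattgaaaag

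Of these genes, upSET encodes a SET-domain chromatin protein, Adss adenylosuccinate synthetase of purine synthesis, Dad the inhibitory Smad of Dpp signalling, beta-Spec the beta subunit of spectrin, Pp2C1 a protein phosphatase, BRWD3 a bromodomain protein, trx the histone methyltransferase Trithorax, and ex a component of the Hippo pathway. The upSET, Adss and CG3726 members show TTACATAA, TTATGTAA and TTACGTAA near the summit base. The Dad region shown is the second-strongest in that gene with a summit signal of 2031. The Pp2C1, BRWD3 and trx members show the looser words TTGCATAA, TTGCGTAA, and TTGTATAA with TTATACAA. In the CG11050 member none of these words lay within 50 bp of the summit.

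Replicate 1 stood apart from replicates 2 and 3, and results are therefore given for each replicate. Each replicate list held 30000 lines and no read counts, so depth was unknown. A member was taken as found in a replicate when a summit among that replicate's 13583 strongest lines lay within 200 bp. Ranks of the members by signal, the authors' own value per peak, which is relative to a control and differs in scale between lists, were compared over the whole lists, with no limit on rank, and had a Spearman's rho of 0.363 between replicates 1 and 2 (2805 members), 0.559 between 1 and 3 (2871) and 0.675 between 2 and 3 (2717). The optimal list followed replicate 1 most closely, with rho 0.908 against 0.625 and 0.732. These correlations are over members, which share libraries, and describe the lists.

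Members were of middling strength. Their deposited signals in the optimal list ran from 159 to 5551, with quartiles of 217, 309 and 490, and their median rank was 7373 of 13583. Among the strongest 10% of the list stood 197 members (6.44% of members), compared with 14.1% of the 6919 summits within 1 kb of a protein-coding TSS, called promoter summits here. The strongest member, in the first intron of Pp2C1 at chrX:4684266-4685079, had a signal of 5551 and rank 14, with signals of 3082, 1647 and 843 in replicates 1, 2 and 3. CG11050 followed with 4934 in an intron of 140 bp, and upSET with 4623 in an intron of 3821 bp. These 3 members ranked between 10 and 86 in every replicate, so the strongest regions were strong in each of them.

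The 20 strongest members found in all 3 replicates had signals from 2374 to 5551 and lay in 20 host genes. Of the 20 members, 16 lay in a first intron, and all were 1025 to 7402 bp from the nearest TSS. The remaining host genes by falling signal were CG32772, sgg, the fly GSK3 kinase, CG32486, Vha16-1, a proteolipid subunit of the vacuolar proton pump, crp, a basic helix-loop-helix factor, Dad, Adss, BRWD3, stx with 2 members, CG3726, Eglp2 and Eglp4, aquaporin-type channels that overlap and share 1 member, trx, Crtc, a coactivator of CREB, CG32369, MFS14, a transporter of the major facilitator superfamily, and Gdh, glutamate dehydrogenase. The canonical site lay within 50 bp of 3 of these 20 summits and the wider form at 12. The sgg member had a signal of 3452 in the optimal list and 2194, 753 and 521 in replicates 1, 2 and 3, with neither form at its summit. The Crtc member, with TTGCATAA, had 2529 in the optimal list and 1487, 640 and 411 in the replicates.

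Distal introns of shorter genes were densely occupied. All positions that the rule could accept made up 22.3 Mb, which gave 137 member summits per Mb. Introns of genes of 50 kb or longer offered the same amount of distal sequence, 22.3 Mb, and held 1361 summits, 60.9 per Mb. Distal intergenic sequence held 46.0 per Mb (1490 summits), distal exons 25.4 per Mb (756 summits) and promoter windows 255 per Mb. Over the strongest lines of replicates 1, 2 and 3 the members' density was 141, 127 and 128 per Mb, a mean of 132 ± 8.18 (SD, n = 3). In introns of the longer genes it was 62.5, 58.9 and 54.9 per Mb, a mean of 58.8 ± 3.81 (SD, n = 3). The values of the 2 classes did not overlap, and the difference exceeded the spread between replicates, although an exact test over 3 pairs cannot give a p below 0.25.

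Density was lower farther from the TSS in both kinds of gene. Members numbered 965 at 1 to 2 kb from the nearest protein-coding TSS, 1150 at 2 to 5 kb, 649 at 5 to 10 kb and 293 beyond 10 kb. Per Mb of acceptable sequence at those distances there were 203, 147, 114 and 72.3 members. Longer genes held 130, 108, 81.8 and 35.8 summits per Mb at the same distances, so shorter genes had the higher density in each of the 4 ranges. The median distance was 3092 bp and the longest 28650 bp, and the nearest protein-coding TSS belonged to a host gene for 80.0% of members. The rule set the inner limit. Members in Shrm and Prestin at 1001 bp from a TSS, with signals of 331 and 241, lay just inside, and summits in sty at 1000 bp (signal 290) and HisT at 999 bp (199) just outside. At the length limit, NetA (49917 bp, 4 members) and Dyrk2 (49649 bp, 12 members) lay inside, and ab (50403 bp, 2 summits), pHCl-1 (50452 bp, 1 summit) and ftz-f1 (50703 bp, 21 summits) outside.

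**Figure D1:**
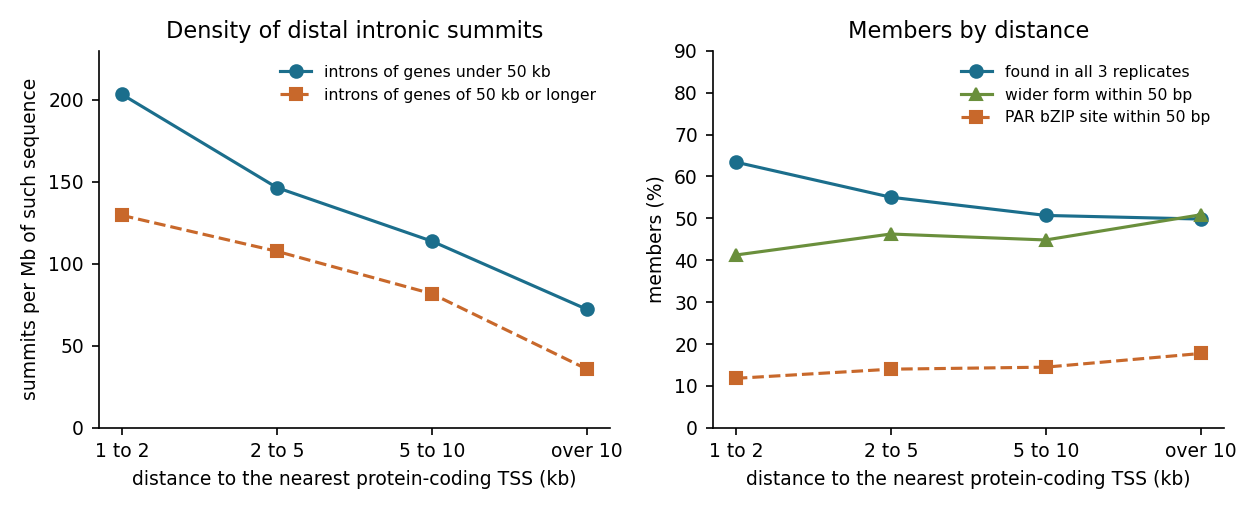
Left, distal intronic summits per Mb of acceptable sequence by distance to the nearest protein-coding TSS in kb, for genes under 50 kb (circles) and genes of 50 kb or longer (squares), from 203 and 130 per Mb at 1 to 2 kb down to 72.3 and 35.8 beyond 10 kb. Right, the percentage of members found in all 3 replicates, with the wider form and with the PAR bZIP site in the same distance ranges; the share found in all 3 is 63.4% in the nearest and 49.8% in the farthest range, while the site share is 11.8% in the nearest and 17.7% in the farthest range.

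First introns held most members. An intron counted as first where it came first in a transcript of a host gene. Of the members, 2025 (66.2%) lay in first introns, which made up 49.4% of the acceptable sequence, and 1032 in later introns, giving 183 and 91.2 members per Mb. The canonical site was at 11.7% of members in first introns and 17.8% of those in later introns (odds ratio 0.611, 95% interval 0.493 to 0.758, two-sided Fisher exact test over members, Benjamini-Hochberg adjusted p = 5.04e-06 over 3 comparisons within members). In the strongest lines of replicates 1, 2 and 3 it was at 14.1%, 6.45% and 6.49% in first introns and at 20.4%, 8.03% and 9.32% in later introns, lower in first introns in each replicate. First introns lay nearer to a TSS, with a median of 2665 bp against 4103 bp. Density was also lower farther from the TSS, and the 183 and 91.2 members per Mb were not split by distance. Within 1 to 2 kb the site was at 11.5% of first-intron and 13.02% of later-intron members, at 2 to 5 kb at 10.3% and 21.0%, and beyond 5 kb at 14.0% and 17.3%. Members in first introns were found in all 3 replicates more often, at 59.3% against 50.3% (odds ratio 1.44, 95% interval 1.24 to 1.68, Fisher exact test, adjusted p = 3.16e-06).

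The PAR bZIP site was concentrated at member summits. It lay within 50 bp of 421 members, 13.8% (95% Wilson interval 12.6 to 15.04, which like all intervals here covers the counting of summits alone), beside 12.0% of all optimal lines. In windows of the same width 300 bp away it was in 30, or 0.981%, which made the summits 14.0 times as rich in it (sign test, exact and two-sided, over members with the site in 1 window alone, adjusted p = 1.24e-93 over 18 motifs). The wider form was at 1370 members, 44.8% (43.1 to 46.6), beside 35.8% of all optimal lines, and in 5.79% of the neighbouring windows (a 7.74-fold difference by the exact sign test, adjusted p = 1.01e-267). P-values over members measure variation between regions and not between replicates. Over each replicate's own strongest lines in such introns, which numbered 3162, 2839 and 2852, the site was at 16.3%, 6.94% and 7.40% of summits, averaging 10.2% ± 5.27 (SD, n = 3), while the neighbouring windows averaged 0.937% ± 0.0221. The wider form was at 48.8%, 30.7% and 29.9%, a mean of 36.5% ± 10.7 against 5.33% ± 0.415. Replicate 1 was the high value in both, and in every replicate the summits exceeded the windows beside them.

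Within the 101 bp the sites crowded towards the summit base. Among the 421 members with the site its centre lay a median of 13.5 bp from the summit, and in 118 (28.0%) within 10 bp. In bins of 20 bp, 157 sites lay in the 20 bp before the summit and 171 in the 20 bp after it, compared with 14 and 11 in the bins centred 50 bp away. Single sites were the rule, with 415 members holding 1 site and 6 holding 2 or more. The centre was CG, as in TTACGTAA, in 21.1% and the form TTATGTAA in the others. A purine before and a pyrimidine after the site, the flanks of the full PAR bZIP consensus, were present at 187 of the 421 sites (44.4%) and at 4 of the 30 in windows 300 bp away (13.3%). Mean GC content was 39.4% at summits and 41.3% in the windows beside them.

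**Figure D2:**
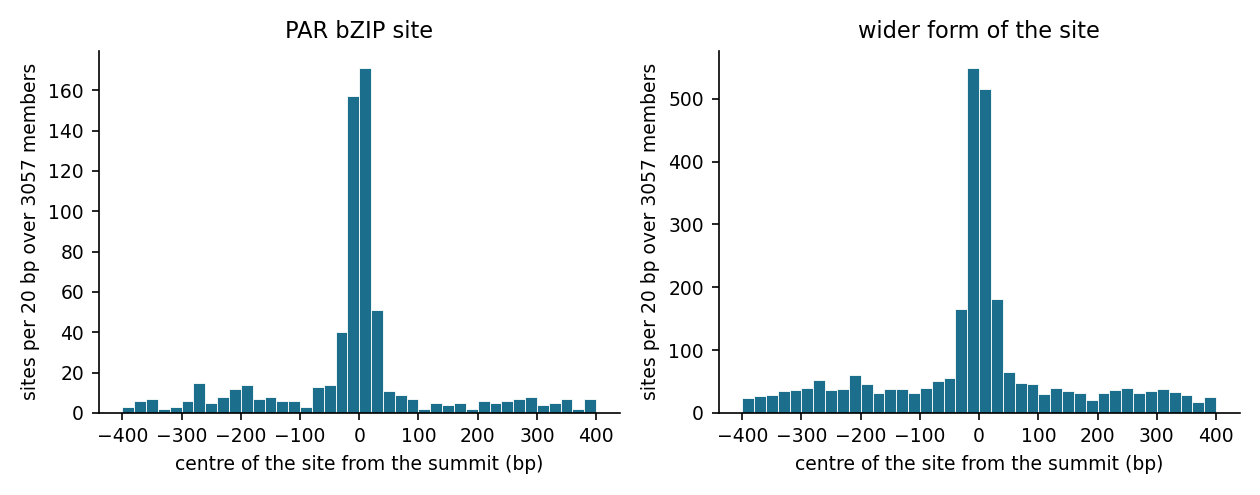
Number of PAR bZIP sites (left) and of sites of the wider form (right) per 20 bp by the distance in bp of the site's centre from the summit, on the reference plus strand, summed over the 3057 members. The 2 bins next to the summit hold 157 and 171 canonical sites and 549 and 515 of the wider form.

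Members held the site more often than promoter summits and less often than distal exon summits. The site was at 8.34% of promoter summits, lower than at members (odds ratio for members 1.76, 95% interval 1.53 to 2.01, two-sided Fisher exact test over summits, adjusted p = 1.48e-15 over 6 comparisons), and the wider form at 26.1% (odds ratio 2.30, 2.10 to 2.52, Fisher exact test, adjusted p = 5.5e-74 over 3). In replicates 1, 2 and 3 the site was 6.36, 1.87 and 2.31 percentage points more frequent at members than at promoter summits, most in replicate 1. For the wider form these differences were 19.0, 11.6 and 11.8 percentage points. With 1 replicate left out, the site's odds ratio was 1.36 to 1.47 over summits found in both remaining replicates. In distal introns of longer genes the site was at 15.5%, and the difference from members did not pass (odds ratio 0.870, interval 0.725 to 1.05, Fisher exact test, adjusted p = 0.136), although with the strongest summit of each gene alone it did (0.551, adjusted p = 0.00217). That setting chose from more summits per gene in the longer genes. The wider form was at 44.7% there (odds ratio 1.00, interval 0.880 to 1.14, Fisher exact test, adjusted p = 0.974). At distal intergenic summits the site was at 16.0% (odds ratio 0.836, interval 0.701 to 0.998, adjusted p = 0.0654, Fisher exact test) and the wider form at 41.9% (1.13, 0.993 to 1.28, adjusted p = 0.0972). The direction of the site's difference from intergenic summits changed with the replicates used, as the members' share minus the intergenic share was -4.51 percentage points in replicate 1, 0.949 in replicate 2 and -0.0453 in replicate 3. For the wider form the same differences were -0.808, 8.06 and 6.11 percentage points, so members were the higher class in replicates 2 and 3 and not in replicate 1.

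Summits in exons farther than 1 kb from a protein-coding TSS, here called distal exon summits, carried the site most often of the 5 classes. It was at 23.7% of these 756 summits, and the odds ratio for members was 0.515 (interval 0.421 to 0.631, Fisher exact test, adjusted p = 2.99e-10 over 2 comparisons with this class). In replicates 1, 2 and 3 it was at 26.9%, 11.3% and 13.2% of them, above the members in each replicate. The wider form was at 59.9% (odds ratio for members 0.543, Fisher exact test, adjusted p = 2.2e-13), and at 64.8%, 38.8% and 37.0% in the 3 replicates. Distal exon summits were found in all 3 replicates less often than members, at 43.9% (odds ratio for members 1.64, interval 1.40 to 1.94, Fisher exact test, adjusted p = 1.18e-09).

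**Figure D3:**
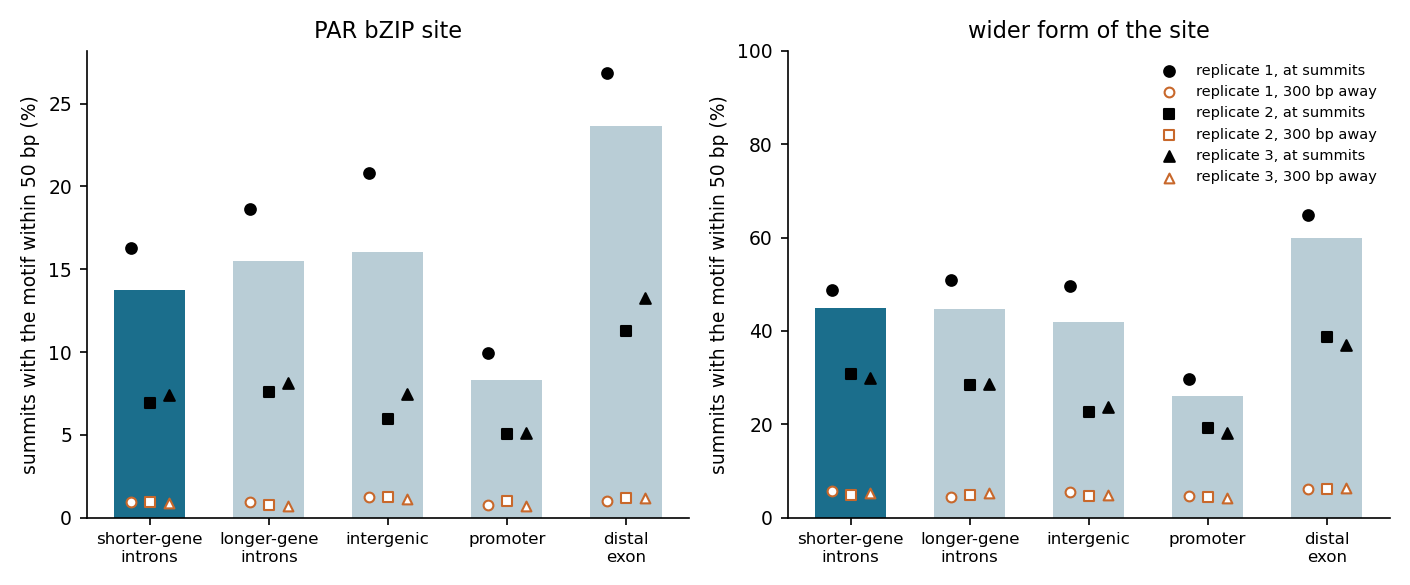
Percentage of summits with the PAR bZIP site (left) and its wider form (right) within 50 bp, for members (dark bars, introns of genes under 50 kb) and 4 other classes of summits; bars are the optimal list, filled points the strongest lines of each replicate and open points windows 300 bp away. Replicate 1 lies above replicates 2 and 3 in every class, and the open points stay near 1% for the site and 5% for the wider form. Distal exon summits stand highest in both panels.

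Members with the site were unevenly found between the replicates. Replicates 1, 2 and 3 found 91.2%, 71.0% and 75.4% of members, beside 89.3%, 76.3% and 79.2% of all optimal lines. Members with the site were found in replicate 1 more often than members without it, at 98.6% against 90.02% (odds ratio 7.67, Fisher exact test, adjusted p = 2.61e-11 over 3 replicates). That excess did not pass with 1 member per host gene (2.09, Fisher exact test, adjusted p = 0.217) and turned with the whole list of replicate 1 (0.732, adjusted p = 0.578). In replicate 2 they were found less often, at 49.2% against 74.4% (odds ratio 0.332, adjusted p = 1.01e-23, Fisher exact test), and likewise in replicate 3, at 56.5% against 78.5% (0.357, adjusted p = 5.59e-20). All 3 replicates found 1720 members (56.3%, interval 54.5 to 58.0), beside 60.6% of all optimal lines. That share was 43.5% with the site and 58.3% without (odds ratio 0.550, interval 0.444 to 0.680, Fisher exact test, adjusted p = 5.29e-08). Members come from the optimal list, which followed replicate 1 most closely (rho 0.908, against 0.625 and 0.732). Replicate 1 was also richest in the site (16.3%, against 6.94% and 7.40%). These comparisons by site are thus not independent of how members were chosen, and the part of this in them was not tested. The members' share in all 3 was lower than that of promoter summits, 67.9% (odds ratio 0.609, interval 0.557 to 0.665, adjusted p = 8.96e-28, Fisher exact test). It was higher than that of distal intergenic summits, 50.3% (odds ratio 1.27, interval 1.12 to 1.44, adjusted p = 0.000283, Fisher exact test), a call lost with a TSS distance of 2 kb (1.16, adjusted p = 0.0822). The longer genes' introns had 53.5%, a difference that did not pass (1.12, interval 0.982 to 1.27, adjusted p = 0.106, Fisher exact test).

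The members fell into sets by the replicates that found them. The 436 members found in replicate 1 alone had the site at 35.8% and the wider form at 78.2%, and a median signal of 227. The 145 found in replicates 2 and 3 but not in replicate 1 had the site at 0.690% and the wider form at 11.03%, against 6.21% in windows 300 bp away, with a median signal of 192. The 1720 found in all 3 had 10.6% and 41.5%, with a median of 424. The ex member printed above belongs to the first set. It had a signal of 554 and rank 3402 in the optimal list. By strength, the strongest 10% of members (305, signals 761 to 5551) had the site at 16.7% and the wider form at 58.4%, and 99.0% of them were found in all 3 replicates. The weakest 10% (305, signals 159 to 180) had 6.56% and 26.2%, with 3.93% found in all 3. The optimal ranking had its highest rank correlation with that of replicate 1, and the part of this in these shares was not tested. Being found also meant a high rank in a replicate list, and the optimal list was derived from those lists. The 99.0% and 3.93% are thus tied to strength by definition.

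**Figure D4:**
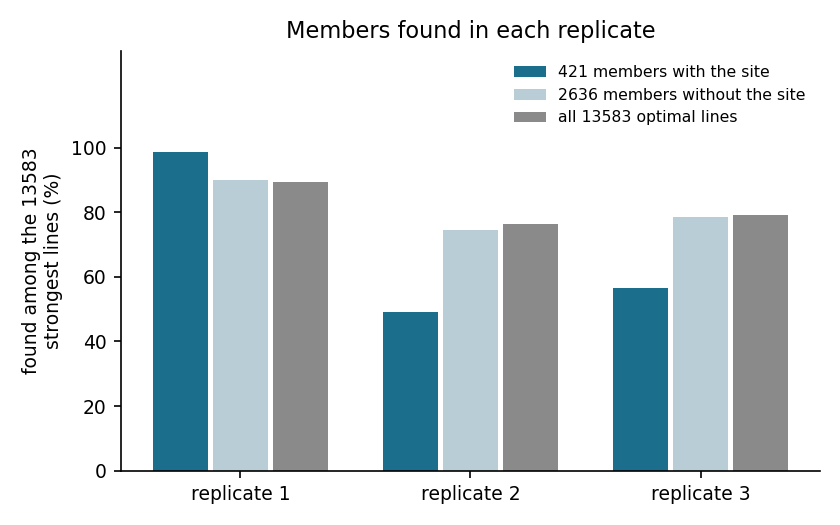
Percentage found among the 13583 strongest lines of each replicate, for the 421 members with the PAR bZIP site, the 2636 members without it and all 13583 optimal lines. Members with the site stand highest in replicate 1 (98.6%) and lowest in replicates 2 and 3 (49.2% and 56.5%).

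Among the single 8-base words, all but 1 of the 10 words of the wider form were more frequent at members than beside them. Without a motif given beforehand, 9017 words found in at least 20 windows were tested, and 167 (1.85%) were more frequent at summits and 8 (0.0887%) less frequent (exact sign test, adjusted p under 0.05). The word TTACATAA, equal to TTATGTAA read from the other strand, was at 10.9% of members against 0.818%. TTATATAA, which is not canonical, was nearly as frequent, at 10.1% against 0.654%, and TTATGCAA was at 8.996% against 1.28%. The highest ratio among these words was 17.8, for TTACGTAA, present at 2.91% of members. TTACGCAA was at 3.43%, TTATACAA at 3.17%, TTACACAA at 3.04%, TTGCACAA at 2.09% and TTGCGCAA at 1.57%. TTGTACAA was at 0.425% against 0.229% and did not pass (exact sign test, adjusted p = 0.923). Of the words called more frequent, 17 shared no run of 5 bases with the wider form. They included ATGTTTAC (1.34% against 0.294%, adjusted p = 0.000744), GGTAAACA (0.949% against 0.164%, adjusted p = 0.00377) and TGATAAGA (1.44% against 0.523%, adjusted p = 0.0247, exact sign tests).

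Of 18 motifs set by name, 4 (22.2%) were more frequent at members than 300 bp away and 0 (0%) less frequent by the exact sign test at an adjusted p under 0.05, with 0 less frequent at an unadjusted p under 0.05 as well. Besides the site and its wider form these were the C/EBP word TTGCGCAA, itself a word of the wider form, and the GATA word, AGATAAG or TGATAAG, which GATA factors such as Serpent bind. The GATA word was at 6.44% of members and 4.02% of the neighbouring windows (ratio 1.60, adjusted p = 0.000124, exact sign test), beside 5.03% of all optimal lines and 4.36% of promoter summits. It was at 4.78% of summits in distal introns of longer genes and at 5.57% of distal intergenic summits. Its ratio in replicates 1, 2 and 3 was 1.58, 1.60 and 1.82, above 1 in each replicate, and with a TSS distance of 2 kb the call was lost (ratio 1.43, exact sign test, adjusted p = 0.0550). TTGCGCAA was at 1.57% against 0.262% (ratio 6.00, exact sign test, adjusted p = 2.81e-07), beside 1.08% of all optimal lines, and its ratio was 3.33 with 1 member per host gene (adjusted p = 0.0421). The myogenic E-box CAGCTG was at 4.35% and 4.15% (ratio 1.05, adjusted p = 0.988), the CLK and CYC E-box CACGTG at 1.41% and 1.86% (ratio 0.754, adjusted p = 0.580), the FOXO word GTAAACAA at 1.73% and 1.21% (ratio 1.43, adjusted p = 0.393), and the MEF2 site at 2.98% and 3.11% (ratio 0.958, adjusted p = 0.988, exact sign tests). In replicates 1, 2 and 3 the ratio of the FOXO word was 2.03, 1.47 and 2.43, higher than in the optimal list in each, and that of the MEF2 site 1.00, 1.40 and 0.968. No test was run on these ratios per replicate. The promoter element TATCGATA (DRE) was at 0.164% of members in both windows, beside 1.91% of all lines and 3.54% of promoter summits. The other distal classes were as low, with 0.220% in introns of longer genes and 0.201% at intergenic summits. All motifs were searched on both strands, and a match describes the sequence and not a bound site.

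Members lay in a minority of the genes that could host them. Of 6542 protein-coding genes with any position the rule could accept, 1294 (19.8%) hosted at least 1 member, rising with the acceptable sequence of a gene from 2.93% of genes with under 1000 bp to 60.1% of those with 10000 bp or more. A single member lay in 586 host genes, and 173 had 5 or more. Of the members, 888 (29.0%) lay within 1 kb of another member. Summits of the same interval were counted singly here, and 148 members lay in an interval with more than 1 summit. No such share was taken for other summits, so the 29.0% describes spacing and is not a measure of clustering. Host genes also had a promoter summit more often, at 76.7% against 48.4% of the genes that could host but did not, a difference seen in each of the 5 classes of acceptable length and described without a test.

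The gene with most members was tara, a co-regulator of the trithorax group with a known role in sleep, with 16 in its first intron of 30338 bp. Its strongest, at summit 16236462 of 3R, had a signal of 2179 in the optimal list and 1344, 483 and 379 in replicates 1, 2 and 3. The second, 1330 bp upstream of a TSS, had 2036 and held TTATATAA, and the third, with TTACATAA, had 1290. Of the 16, all 3 replicates found 14, and 4 had the wider form. The intron thus carried strong regions both with and without the site. The gene tna, which encodes an SP-RING protein of the trithorax group, had 13 members, the strongest at 1164. Dyrk2, a protein kinase, had 12, with a strongest of 878, and 7 of them with the wider form. CG6051 had 11, the strongest at 1341 with TTATGTAA. Acceptable sequence was 28125 bp in tara, 30203 bp in tna, 43005 bp in Dyrk2 and 13939 bp in CG6051, so these counts are not densities.

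In vri, the bZIP repressor that shares Clk sites with Pdp1, 11 members stood within 18055 bp of first intron. Their signals ran from 216 to 1187. The strongest, at summit 5295343 of 2L with TTATATAA, had 862, 164 and 153 in replicates 1, 2 and 3. Of the 11, 6 had the wider form and 2 the canonical site, and all 3 replicates found 8. The 2 members with the canonical site had signals of 324 and 297 and were found in 2 replicates and in 1. The 3 strongest vri members held looser words.

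**Figure D5:**
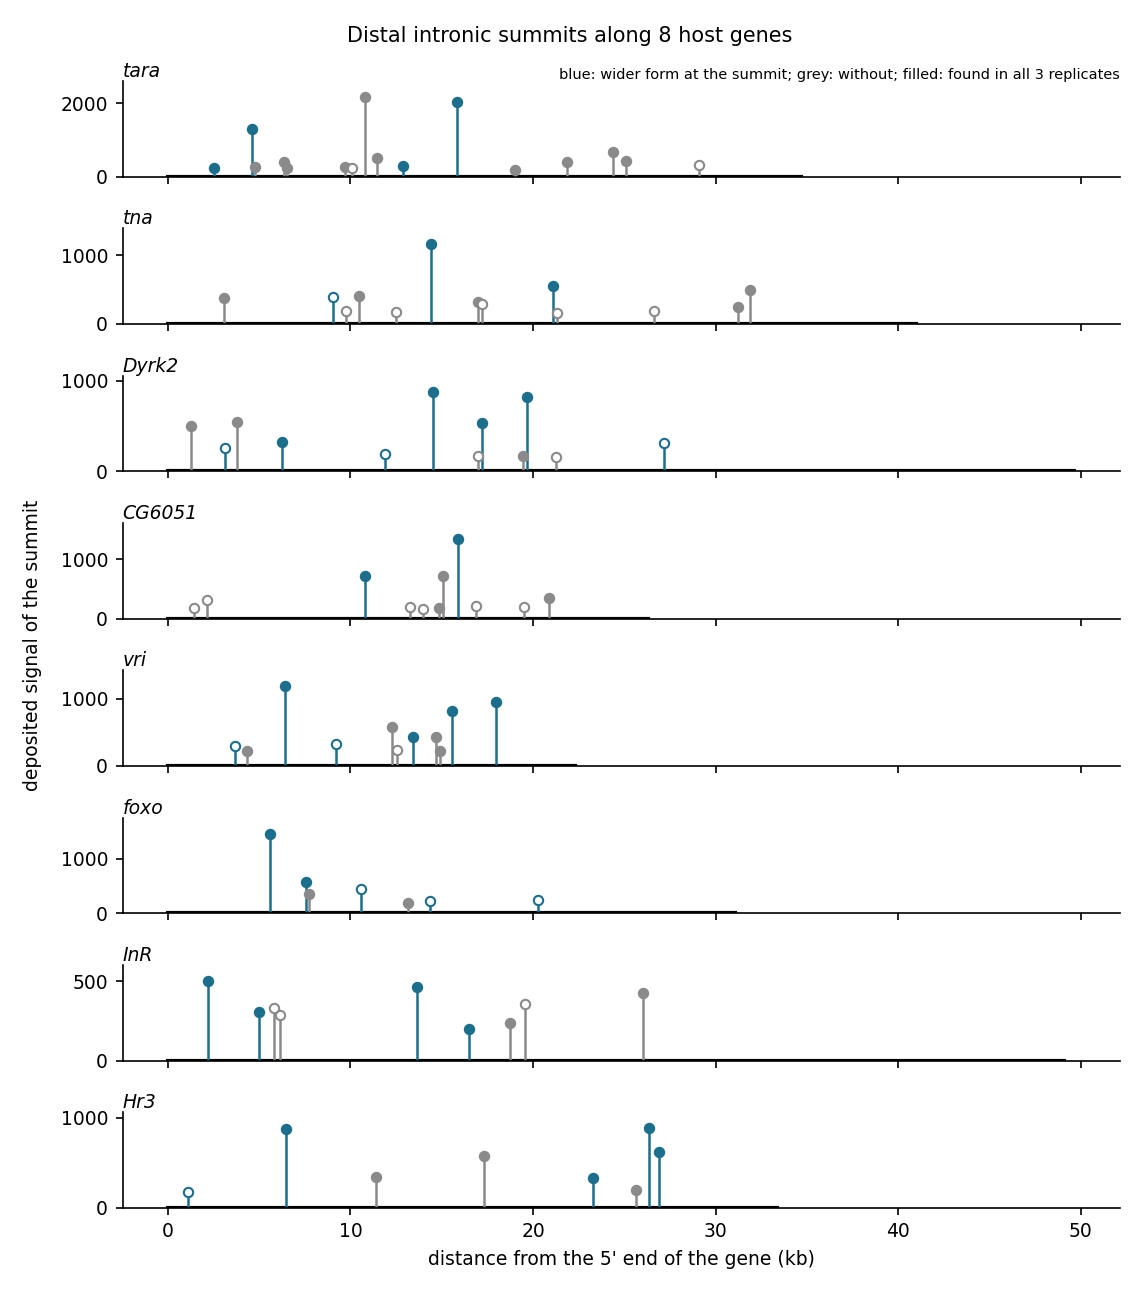
Members along 8 host genes: each stem is a summit at its distance in kb from the 5' end of the gene, with the deposited signal as its height. Blue stems have the wider form within 50 bp and grey stems have not, filled heads were found in all 3 replicates, and the black line is the gene; tara has 16 members with the strongest at 2179, and Hr3 has 8 with the strongest at 882.

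Genes of the clock, other bZIP factors and metabolism were among the hosts. The 15 gene lists used here come in part from an earlier look at these data, and their counts are read beside the 19.8% of all eligible genes that hosted a member. Over all members 13.8% held the site and 44.8% the wider form, and 56.3% were found in all 3 replicates. Larger genes host more often, so a count also follows gene size, and the members per Mb of acceptable sequence, 137 over all, are given with it. That density itself ran from 203 per Mb at 1 to 2 kb from a TSS to 72.3 beyond 10 kb. The lists' densities were not adjusted for distance. In the clock list 8 of 15 eligible genes hosted 41 members, 368 per Mb, with a median signal of 393 beside 309 over all members. The hosts were sgg, tara, vri, cwo, a transcriptional repressor of the loop (4 members, highest 1178), slmb, which encodes an F-box protein that targets PER for degradation (3, highest 608), per itself (1, signal 400, 1532 bp from a TSS), the kinase gene dco (1) and Pdfr, the receptor of the PDF neuropeptide (1). Of the 41 members, 31 were found in all 3 replicates, and tara and vri together held 27 of the 41. Clk, cyc, tim, cry, jet and both casein kinase II subunit genes hosted none. The strongest member in CG32369 (signal 2433), however, lay 6393 bp upstream of the Clk TSS, which was its nearest.

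Among bZIP factor genes 7 of 10 hosted 43 members, 391 per Mb, with a median signal of 324. Besides vri these were REPTOR, a factor of the TOR pathway (5 members, highest 1157), cnc, the Nrf2-type factor of the oxidative stress response (6, highest 928), kay, the fly Fos (6, highest 811), CrebB (2), CrebA (6) and Atf3 (7, highest 481). All 5 REPTOR members and 5 of 6 kay members were found in all 3 replicates, and none in either gene held the wider form.

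In the insulin and TOR list 13 of 26 genes hosted 45 members, 310 per Mb, with a median signal of 326. The strongest lay in foxo, the forkhead factor that insulin signalling restrains, at chr3R:14062216-14062742 with TTACGTAA. It had a signal of 1465 in the optimal list and ranked 371, 2435 and 678 in replicates 1, 2 and 3, highest in replicate 1. In all foxo held 7 members, 5 of them with the wider form. InR, the insulin receptor gene, held 9 with a highest signal of 501. The kinase genes mnb and S6k had highest signals of 1276 and 1249, and ImpL2, which encodes a binding protein of insulin-like peptides, held 6 members up to 1176.

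For lipid storage and the fat body 13 of 23 genes hosted 26 members, 250 per Mb. The canonical site was at 0 of these, beside 13.8% of all members. It was at 0 of the 9 members in haemocyte genes too, which are too few to set against that share. The wider form was at 5 of those 9 (55.6%), and the 2 members in srp belong to both lists. Of the 26 lipid members, 5 had the wider form (19.2%, beside 44.8% of all members), and 19 (73.1%, beside 56.3%) were found in all 3 replicates. The hosts included Acsl, an acyl-CoA synthetase (highest 1489, with TTACGCAA), bmm, the adipose triglyceride lipase (5 members, highest 990), the perilipin genes Lsd-2 (981) and Lsd-1 (688), and the nuclear receptor gene Hnf4 (5 members, highest 719). All 5 Hnf4 members were found in all 3 replicates without the wider form. In the sugar and energy list 9 of 20 genes hosted 20 members in 0.0352 Mb, 568 per Mb. The strongest were in Gdh (2374) and kdn, which encodes citrate synthase (7 members, highest 1455), and in sug, a zinc finger gene of the sugar response (highest 818, with TTACGTAA).

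Genes of the sarcomere and of muscle specification hosted at shares nearer to the background. Of sarcomere genes 6 of 20 hosted 15 members, 159 per Mb. Tm1, which encodes a tropomyosin, had 5, the strongest in its first intron, 1935 bp downstream of a TSS, with 1419 in the optimal list and 920, 247 and 267 in the replicates. The others were tmod, a tropomodulin (4, highest 1073), Prm, paramyosin (2, 597), Actn, alpha-actinin (2), wupA, a troponin I (1), and Zasp66 (1). In muscle specification and fusion 8 of 30 genes hosted 31 members, 122 per Mb, with 11 in Mef2 (highest 850, with neither form) and 9 in mbc, a regulator of myoblast fusion (highest 557, with TTACATAA). Muscle attachment had 8 of 16 and 28 members, 202 per Mb, including mew and if, both integrin alpha subunits (9 and 4), and sr, a tendon cell factor (6, highest 1157). Of the 28, 6 (21.4%) had the wider form, beside 44.8% of all members.

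The other lists spread around the background density. Signalling pathways hosted in 21 of 33 genes (67 members, 202 per Mb), led by cact, the fly inhibitor of NF-kappaB (5, highest 1815), aop, an ETS repressor (9, highest 956, none with the wider form), and the receptor gene N (4, 876). Ecdysone and nuclear receptor genes hosted in 7 of 13 (21 members, 126 per Mb), and 8 of these were in Hr3, a receptor gene induced by ecdysone, with 7 found in all 3 replicates and 5 with the wider form. Epidermis and trachea hosted in 8 of 18 (115.2 per Mb), gut and Malpighian tubule in 6 of 19 (243 per Mb, highest GATAd at 1696), haemocytes in 5 of 15 (95.1 per Mb) and translation and mitochondria in 3 of 15 (331 per Mb from 6 members, 4 of them in larp). Nervous system genes had the lowest density of the 15 lists, with 13 members in 7 of 25 genes and 44.4 per Mb, and fne, an ELAV-type gene, had the highest signal there (836).

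Near Pdp1 itself, which at over 50 kb is too long to host members, 19 members lay within 50 kb of the gene, 10 in CG32369 and 9 in CG32365. The highest signal in CG32369 was 2433, with TTACGCAA, and in CG32365 it was 774, and 12 of the 19 had the wider form. For that strongest CG32369 member the nearest protein-coding TSS was that of Clk, with the summit 6393 bp upstream of it. Whether the transgene carries sequence of CG32369 or CG32365 is not given in the sources used here.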

How the data were processed

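Anti-GFP ChIP-seq of 3 biological replicates was available as deposited narrowPeak lists. Per the deposited file records, the authors called peaks with a control alignment in every replicate and in the pool of all 3, and an IDR step, which asks whether replicates order peaks similarly, gave the optimal list. Aligner, caller and IDR version: not given in the sources used. The signal of each peak is the authors' own deposited value, relative to a control, and served to describe and rank summits within a list. The authors' −log10 q values were capped and went into no test. No read counts were given, so depth is unknown. Lists on dm3 and signal tracks were not analysed here. The labels do not say whether replicates differ in date or run.

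Members were found with gene models of Ensembl release 115 (BDGP 6.54) and the Release 6 genome, with all 13583 optimal lines on its 6 arms and 0 ending past an arm. Host genes are protein-coding genes under 50 kb with an intron over the summit. Summits of 1 interval were counted singly, and 148 members shared an interval with another summit, so neighbouring summits can match 1 replicate line and are not independent. Motifs were searched on both strands in 101 bp and in a window 300 bp away on alternating sides. The tests were exact sign tests and Fisher exact tests with Benjamini-Hochberg adjustment and exact conditional intervals of odds ratios, run in Python 3.11.15 with NumPy 2.4.6 and SciPy 1.17.1, and the word test was checked on simulated data. Figures used Matplotlib 3.10.9. Named genes were the hosts of the 20 strongest members, the 5 genes with most members and up to 3 hosts of highest signal per list. Further hosts were named after their values were seen. The members, lists and motifs were chosen with earlier results of these data known, and none supports a pattern independently.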

Additional observations from a re-analysis of the deposited data

How the results depend on the processing

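With 1 group there was no comparison between groups to block by replicate, and the classes of summits were set side by side within each replicate. The 21 results were recomputed under every setting that applied. Of the combinations of result and setting, 270 kept their direction and side of the threshold, or their count within 1.5 times, 11 counts moved further, 7 results gained a call, 3 lost one and 9 turned in direction. The excess of the site at members over windows 300 bp away held under every setting tried, with a ratio of 10.8 to 15.3 when 1 replicate was left out. The number of members was 1386 among the stronger 50% of optimal lines, 1223 with 1 member per host gene, and 1865 to 2131 when only members found in both remaining replicates were kept, lowest without replicate 1. Words called more frequent numbered 107 with a gene length limit of 30 kb, 75 in the stronger 50% of lines, 65 with 1 member per host gene, 104 with windows of 100 bp each side, and 77 to 102 without 1 replicate. Fewer members enter most of these.

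The odds ratio of the site against longer genes' introns was 0.551 with the strongest member of each host gene (Fisher exact test, adjusted p = 0.00217) and 1.00 for the wider form. Against intergenic summits it was 0.818 with a TSS distance of 500 bp (Fisher exact test, adjusted p = 0.0165), 0.820 with windows of 100 bp (0.0305), 1.10 with 1 member per host gene (0.454), 1.13 for the wider form and 1.00 to 1.24 without 1 replicate, reversing without any of the 3. The share found in all 3 replicates had an odds ratio against longer genes' introns of 1.17 with a TSS distance of 500 bp (0.0153), 1.17 with a 30 kb limit (0.0127), 1.30 with whole replicate lists (0.0106), 0.751 with 1 member per host gene (0.171) and 1.07 to 1.22 without 1 replicate, passing without replicate 2. Against intergenic summits it was 1.16 with a TSS distance of 2 kb (0.0822), and against promoter summits 1.01 with 1 member per host gene (0.894). The excess of members with the site in replicate 1 was 2.09 with 1 member per host gene (0.217) and 0.732 with whole lists (0.578), and in the stronger 50% of lines every member with the site was found, which gives no ratio. The GATA word had a ratio of 1.43 with a TSS distance of 2 kb (exact sign test, adjusted p = 0.0550). Keeping 1 member per host gene selects the strongest summit in intronic classes and not in the other classes, so the values against promoter and intergenic summits under it compare unlike selections. Longer genes held more summits per host gene (1396 in 242 genes against 3162 in 1355 in replicate 1). Their strongest summit was thus chosen from more, and the part of this in the values against them was not tested. The cause of the other changes was not tested. The settings for the words, the distal exon summits, the GATA and C/EBP words, the finding per replicate and the finding by intron order were chosen after seeing the data.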

Other observations

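Chromosome 4, a small and largely heterochromatic chromosome, held 10 members in 0.343 Mb of acceptable sequence, 29.2 per Mb, against 128 to 154 per Mb on the other arms. All 10 had the wider form and 60% the canonical site, where the other arms had 41.1% to 46.9% and 11.9% to 15.3%. Their host genes were pan, PMCA, lgs, Slip1, toy, sv and CG33521, with signals from 162 in pan to 705 in CG33521, and 2 of the 10 were found in all 3 replicates. These values were singled out after they were seen and were not tested.

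Members with another annotated start nearby were few. The start of a noncoding gene lay within 1 kb of 107 members. Of the 8 words that were less frequent at members than 300 bp away, AATGGATA had the lowest adjusted p, at 4 members against 24 windows (exact sign test, adjusted p = 0.0131), and none was of the wider form.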
